A study of Mus musculus with 9 samples.

Results

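The genes described here are 10 genes used as markers of mural cells, taken by symbol from the deposited table. They are Notch3 and its target Heyl, the receptor gene Pdgfrb, the pericyte genes Cspg4, Rgs5 and Mcam, the intermediate filament gene Des, and the contractile genes Acta2, Tagln and Myh11. All 10 were found among 52459 genes, and all 10 were among the 14998 genes that entered the tests because their mean reached 10 normalized counts. RNA was sequenced from LepR+ cells of mouse tibiae and femurs, which had been digested with collagenase before non-hematopoietic cells were gated and sorted. The labels spell the strain as C57B6. There were 3 libraries from young mice (12 weeks, untreated), 3 from middle-aged mice (52 weeks, untreated) and 3 from middle-aged mice (52 weeks) given sodium salicylate, an anti-inflammatory salt, called treated here. The labels name no transgene and no deleted gene. Whether each replicate was a separate animal is not stated. The p-values therefore refer to the spread among these libraries alone, which may be technical.

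Mural cells are the pericytes of capillaries and the smooth muscle cells of larger vessels. Platelet-derived growth factor B from endothelial cells acts through the receptor encoded by Pdgfrb to recruit them. Notch3 is the Notch receptor characteristic of mural cells. It is activated by Jagged1 on neighboring cells, and its intracellular domain joins the DNA-binding protein RBPJ to switch on target genes such as Heyl, a transcriptional repressor. In the bone marrow, LepR+ cells lie around sinusoids and arterioles and also carry PDGF receptors, so that Pdgfrb does not separate them from pericytes, whereas the contractile genes mark arteriolar smooth muscle.

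The libraries held 9902613 to 20746804 reads. The stromal identity of the sort was visible in all 9 libraries, where Lepr, the gene of the sorting antigen, ranged from 14455 to 102235 normalized counts. Middle-aged replicate 3 stood apart. It had the lowest Lepr value, the lowest sum of 12 LepR+ stromal niche genes (116554 normalized counts against 358255 to 838779 in the other 8 libraries), the fewest genes with a read (16178) and the highest share of reads on antibody genes (32.8%). The antibody share was 0.12 to 0.50% in the young, 3.34 to 32.8% in the middle-aged and 1.59 to 8.61% in the treated libraries. Middle-aged replicate 2 was at 16.6%. The main results that rest on middle-aged replicate 3 are given with and without it. Of the smooth muscle genes, Cnn1 had 3, 21 and 9 reads in the young, middle-aged and treated conditions. Actg2 and Myocd had at most 12 reads in any condition. Others had more, in the same order 26, 15 and 140 reads for Pln and 140, 49 and 54 for Lmod1. Smtn had 911, 347 and 820 reads and Tpm2 944, 172 and 398. Endothelial genes were low, with a sum over 10 genes of 316 to 1401 normalized counts. Genes of the contractile apparatus that other cells also express were abundant, with means in the young libraries of 10287 normalized counts for Tpm1, 5526 for Cald1, 3414 for Mylk, 793 for Synpo2 and 763 for Myl9. The whole list of 12 contractile genes summed to 3760 to 22018 normalized counts per library.

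Promoter sequence was available for 6 of the 10 genes in the RefSeq table (GRCm38.p6). It is given for Notch3 and Rgs5 as the 250 bases before the start of transcription, since these genes share a high level in the data, and around the sites found for Acta2, the contractile gene whose values ran in the other direction. Motifs were searched in these 250 bases on both strands. The RBPJ core was searched as TGGGAA and its reverse complement TTCCCA. The CArG box, the site of serum response factor in contractile genes, was searched in a relaxed form that allowed at most 1 C or G among its 6 central letters. Capitals mark these motifs, and a lower-case run holds none.
Notch3 (chr17:32166891-32167140, minus strand): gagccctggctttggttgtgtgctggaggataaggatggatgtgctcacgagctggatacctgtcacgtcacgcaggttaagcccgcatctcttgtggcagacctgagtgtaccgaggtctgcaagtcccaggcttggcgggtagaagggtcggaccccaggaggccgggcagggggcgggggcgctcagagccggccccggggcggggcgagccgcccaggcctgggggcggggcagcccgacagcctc
Rgs5 (chr1:169655251-169655500, plus strand): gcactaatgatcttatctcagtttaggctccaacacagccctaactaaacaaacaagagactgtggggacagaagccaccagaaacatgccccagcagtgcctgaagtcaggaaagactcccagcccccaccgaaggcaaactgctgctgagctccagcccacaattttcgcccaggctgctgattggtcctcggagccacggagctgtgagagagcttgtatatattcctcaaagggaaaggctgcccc
Acta2, first site (chr19:34255438-34255467, minus strand): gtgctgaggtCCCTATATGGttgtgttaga
Acta2, second site (chr19:34255388-34255417, minus strand): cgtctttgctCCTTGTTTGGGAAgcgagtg

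Acta2 held 2 relaxed CArG boxes, which began 84 and 34 bases before the start, and 1 RBPJ core, which overlapped the second of them. The relaxed CArG box occurred in 8.59% of the 32851 promoter windows of the table, the strict form in 1.47% and the RBPJ core in 21.6%. None of the windows of Notch3, Rgs5, Des, Mcam and Cspg4 held any of these motifs. The window of Notch3 was rich in G and C (68.8%, with 17 CpG dinucleotides), and that of Rgs5 was not (53.6%, with 4). In the GENCODE annotation 217 of the 250 bases of the Acta2 window lie in an exon of a longer transcript. Of the Mcam window 189 bases and of the Cspg4 window 71 bases lie in an annotated exon. Heyl, Pdgfrb, Tagln and Myh11 are named without sequence.

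The first question was how strongly sorted LepR+ cells expressed the mural genes. To compare genes, each normalized count was divided by the kilobases of the gene's longest annotated transcript, and neighbors in the resulting order were compared within each library. Pdgfrb was the highest member, with 942 ± 409 normalized counts per kilobase (SD, n = 9), and ranked 183 of all genes by normalized count. Its level per kilobase was 6.0-fold that of Notch3, the next gene (mean log2 ratio 2.59 ± 0.35 SD, higher in 9 of 9 libraries, p = 0.00391 by exact permutation of the signs, two-sided, and 0.0176 adjusted over 9 pairs). That p is the smallest that 9 libraries allow.

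Notch3 (148 ± 57.2 per kilobase), Rgs5, an inhibitor of G protein signaling that is a classical pericyte marker (134 ± 77.1), and Heyl (129 ± 66.6) followed at nearly the same level per kilobase (SD, n = 9). Neighbors in this group did not differ beyond their spread, with Notch3 above Rgs5 in 5 of 9 libraries (exact sign-flip permutation adjusted p = 0.323) and Rgs5 above Heyl in 5 of 9 (adjusted p = 0.763). Heyl in turn was 3.05-fold higher per kilobase than Des, which encodes desmin, in 9 of 9 libraries (exact permutation adjusted p = 0.0176). Below Des (40.5 ± 25.1 per kilobase) no neighboring pair was separated. Acta2 (smooth muscle actin) had a mean of 17.7 per kilobase, Tagln (transgelin, an actin-binding protein) 6.33, Mcam (the adhesion molecule CD146) 5.97, Cspg4 (the proteoglycan NG2) 5.90 and Myh11 (smooth muscle myosin heavy chain) 4.19, each over 9 libraries. The adjusted p of these 5 pairs, from Des against Acta2 to Cspg4 against Myh11, was 0.308 to 0.906 in the exact permutation test.

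The depth behind the lower genes was small. Over all 9 libraries together Pdgfrb had 55315 reads and Notch3 12470, but Acta2 had 288, Myh11 284, Mcam 196 and Tagln 95. A library with no read allows up to 3 reads, which equals 1.79 to 8.25 normalized counts depending on the library and covers counting error only. Tagln was at 0 in young replicate 2 and at or under this limit in middle-aged replicate 2 (1.11), treated replicate 2 (1.55) and treated replicate 3 (2.05). Myh11 and Mcam were under it in middle-aged replicate 3 (2.75 each). In that library Rgs5 had 23 reads, Heyl 9 and Des 4. In addition, 62.4% of the exon bases of Tagln are shared with the antisense gene Gm48529 and 6.03% of those of Notch3 with the antisense gene Gm17276. Tagln also shares 5.43% with the protein-coding gene Pcsk7 on the other strand. Pcsk7 had 470, 378 and 686 reads in the young, middle-aged and treated conditions, and Gm17276 had 7, 35 and 9. Because the strandedness of the counts is not stated, reads of such pairs cannot be assigned with certainty.

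**Figure D1:**
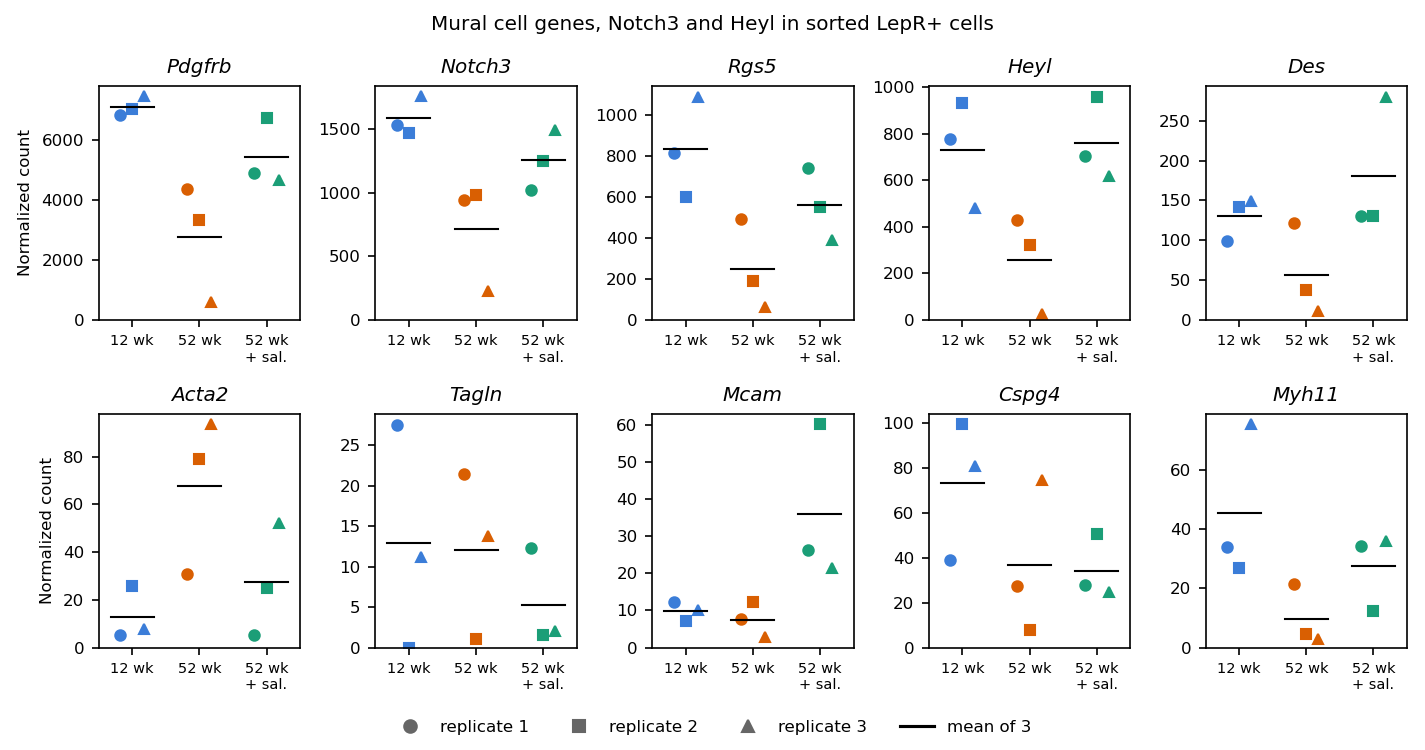
Normalized counts (y axis, linear from 0) of the 10 genes in 9 libraries, in order of the level per kilobase, for young (12 wk), middle-aged (52 wk) and salicylate-treated middle-aged mice (52 wk + sal.). Symbols are replicates and bars are means of 3. Middle-aged replicate 3 is the lowest library for Pdgfrb, Notch3, Rgs5, Heyl and Des and the highest for Acta2.

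Pdgfrb was compared across the conditions next. Its normalized counts were 6829, 7048 and 7464 in the young libraries, 4379, 3333 and 589 in the middle-aged libraries and 4909, 6742 and 4665 in the treated libraries. All middle-aged values lay below all young and all treated values, and all treated values lay below the young values. The difference between middle-aged and young was −1.79 on the log2(count + 1) scale (SE 0.59, 95% interval −3.09 to −0.50, limma adjusted p = 0.116). In bulk RNA, fewer cells of a type and less RNA per cell cannot be told apart.

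Notch3 was at 1530, 1473 and 1763 normalized counts in the young libraries, at 942, 979 and 226 in the middle-aged libraries and at 1023, 1246 and 1493 in the treated libraries. The middle-aged libraries lay below those of the other conditions without overlap, while treated and young libraries overlapped. The log2 difference was −1.42 (SE 0.47, limma adjusted p = 0.120) for middle-aged against young and 1.06 (SE 0.47, adjusted p = 0.496) for treated against middle-aged.

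Heyl showed 775, 933 and 480 normalized counts in the young libraries, 430, 321 and 24.8 in the middle-aged libraries and 705, 958 and 618 in the treated libraries. Again the middle-aged libraries lay below all others. The log2 difference was −2.20 (SE 0.84, limma adjusted p = 0.152) for middle-aged against young and 2.29 (SE 0.84, adjusted p = 0.496) for treated against middle-aged. For treated against young it was 0.09 with a 95% interval of −1.76 to 1.93, and differences within that interval were not detectable with these libraries.

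Rgs5 had 814, 602 and 1091 normalized counts in the young libraries, 491, 190.2 and 63.3 in the middle-aged libraries and 740.1, 553 and 389 in the treated libraries. Middle-aged and young libraries did not overlap, but treated replicate 3 lay below middle-aged replicate 1. With a log2 difference of −2.16 (SE 0.60) and a limma adjusted p of 0.0776 for middle-aged against young, Rgs5 was the member nearest to the threshold of 0.05. DESeq2 on the recovered reads called it lower (log2 difference −1.73, adjusted p = 0.0260), along with 4.12% of all genes, whereas edgeR's quasi-likelihood test called no member.

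Des was at 99.5, 141 and 149 normalized counts in the young libraries, at 122, 37.8 and 11 in the middle-aged libraries and at 131, 131 and 280.4 in the treated libraries. Middle-aged replicate 1 reached into the young range. The highest value, in treated replicate 3, was in the library where skeletal muscle genes summed to 1566 normalized counts against 56.1 to 116 in the other libraries, mainly through Ttn. Desmin is also a protein of striated muscle, and the part of muscle RNA in this value was not tested. In that library Ttn was at 1496, Ckm at 52.4 and Acta1 at 15.4 normalized counts, and elsewhere they reached at most 97.7, 13.1 and 24.5. Myh1, Myh4, Tnnc2 and Myod1 had no read in any library.

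The 3 contractile members differed among themselves. Acta2 was at 5.33, 25.7 and 7.86 normalized counts in the young libraries, at 30.8, 79.0 and 93.5 in the middle-aged libraries and at 5.16, 24.7 and 52.4 in the treated libraries. It was the only member higher in all middle-aged than in all young libraries, by 2.44 on the log2 scale (SE 0.95, 95% interval 0.35 to 4.53, limma adjusted p = 0.159), on 56 reads over the young and 141 reads over the middle-aged libraries. Myh11 took the opposite course, with 33.7, 26.9 and 75.2 normalized counts in the young, 21.4, 4.45 and 2.75 in the middle-aged and 34.2, 12.4 and 36.0 in the treated libraries. Its log2 difference was −2.44 (SE 0.89, limma adjusted p = 0.141) for middle-aged against young. Tagln ranged from 0 to 27.5 normalized counts in the young, 1.11 to 21.4 in the middle-aged and 1.55 to 12.3 in the treated libraries, and its conditions overlapped in each comparison.

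Mcam was the only member whose treated libraries lay above both other conditions. Its normalized counts were 26.5, 60.3 and 21.6 in the treated libraries, 12.4, 7.18 and 10.1 in the young libraries and 7.71, 12.2 and 2.75 in the middle-aged libraries. The log2 difference was 2.15 (SE 0.85, limma adjusted p = 0.496) for treated against middle-aged and 1.65 (SE 0.85, adjusted p = 0.814) for treated against young, on 140, 21 and 35 reads over the treated, middle-aged and young libraries. Cspg4 was at 39.1, 99.3 and 80.8 normalized counts in the young, 27.4, 7.79 and 74.3 in the middle-aged and 27.8, 50.2 and 24.6 in the treated libraries. Its conditions overlapped in all comparisons, and middle-aged replicate 3 was here the highest library of its group.

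**Figure D2:**
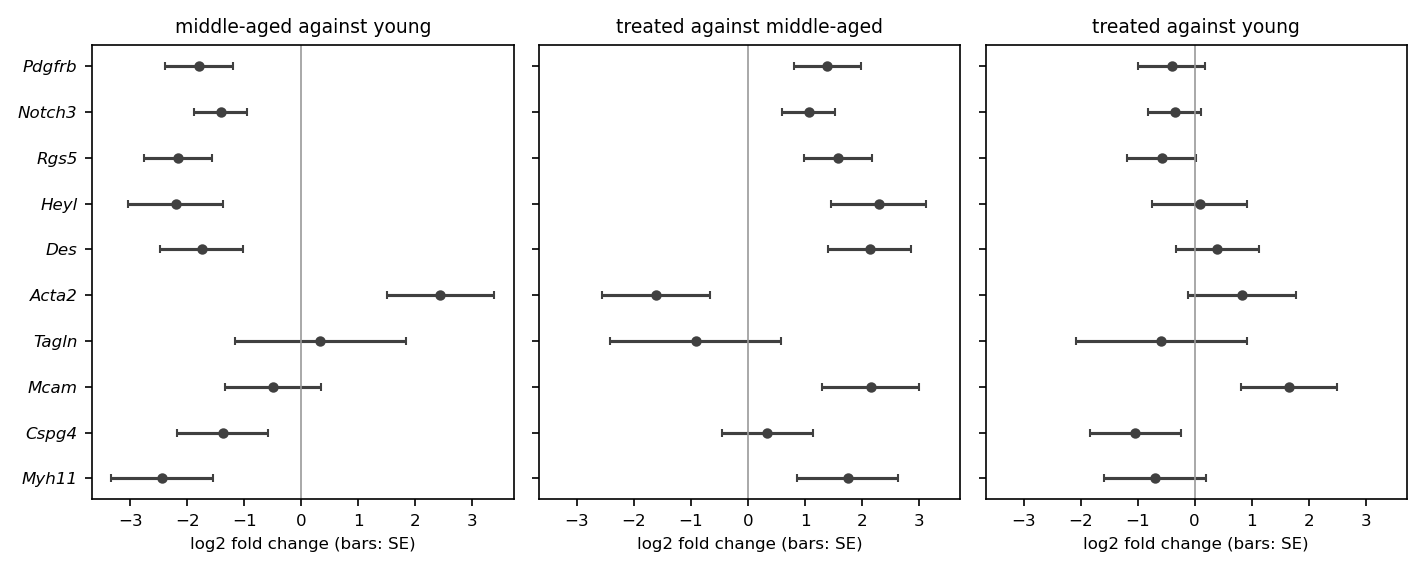
Log2 differences (x axis, log2(count + 1) scale, limma) of the 10 genes in the 3 comparisons, with bars of 1 SE. For middle-aged against young 8 genes lie below 0 and Acta2 and Tagln above it, and for treated against middle-aged 8 lie above 0. No difference passed an adjusted p of 0.05.

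Counted together, 0 of 10 members passed an adjusted p of 0.05 in limma for middle-aged against young, where 2.14% of all genes tested were called higher and 0.873% lower. At an unadjusted p under 0.05 the count was 7, against 3509 of 14998 genes. The ranges of the 2 conditions did not overlap for 1 member that was higher and for 5 that were lower (Pdgfrb, Notch3, Heyl, Rgs5 and Myh11), against 12.4% and 15.1% of all genes tested. Lower without overlap were also 12 of 12 niche genes, 7 of 9 tested genes of the contractile list and 4 of 9 other tested pericyte genes. The median log2 difference of the members was −1.58 and that of all genes −0.08, beside −1.42 for the 12 niche genes.

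The call for middle-aged against young depended on which middle-aged libraries were kept. Without middle-aged replicate 1, limma called 6 members lower (Pdgfrb, Notch3, Heyl, Rgs5, Des and Myh11, with adjusted p of 0.00808 to 0.0417), where 8.34% of all genes were called lower. Without middle-aged replicate 3 it called 2 lower, namely Pdgfrb (−0.90, adjusted p = 0.0172) and Rgs5 (−1.41, adjusted p = 0.0498), where 2.62% of all genes were called lower. The log2 difference was then −0.72 for Notch3 (limma adjusted p = 0.0552), −0.92 for Heyl (adjusted p = 0.0899), −0.90 for Des (adjusted p = 0.346), −1.92 for Myh11 (adjusted p = 0.222) and 2.14 for Acta2 (adjusted p = 0.254). The sizes for Pdgfrb, Notch3, Heyl, Rgs5, Des, Myh11 and Acta2 were thus smaller without this library. The log2 difference of Mcam went from −0.50 to 0.01, and the size for Cspg4 was larger (−2.13, limma adjusted p = 0.105). Over all settings tried the log2 difference of Rgs5 ranged from −2.87 to −0.78 (adjusted p 0.00808 to 0.241).

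For treated against middle-aged 0 of 10 members were called by limma, edgeR or DESeq2, where limma called 0% of all genes higher and 0% lower. At an unadjusted p under 0.05 limma counted 6 members, against 1464 of 14998 genes. The members without overlap were all higher in the treated libraries (Pdgfrb, Notch3, Heyl, Des and Mcam), 5 of 10 against 8.19% of all genes, and 0 were lower against 5.90%. Of the 12 niche genes 5 were higher without overlap. Their median log2 difference was 1.48, against 0.09 for all genes and 0.90 for the niche genes. Without middle-aged replicate 3 the log2 difference was 0.37 for Notch3, 0.49 for Pdgfrb, 1.01 for Heyl, 1.30 for Des and 1.65 for Mcam (limma adjusted p 0.717 to 0.743). This comparison uses the same middle-aged libraries as the one before it.

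For treated against young 0 of 10 members were called by limma, edgeR or DESeq2, and 0 had an unadjusted p under 0.05 in limma (1037 of all genes did), where 0.207% of all genes were called higher and 0% lower. Mcam was higher and Pdgfrb lower without overlap, against 8.99% and 9.90% of all genes. The median log2 difference was −0.38 over the members and −0.01 over all genes. In the limma F test of any difference among the 3 conditions 0 members passed (lowest adjusted p 0.191, for Rgs5), against 0.647% of all genes.

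Other genes of the mural program were described with the same fit, which for middle-aged against young called 0.873% of all genes lower and 2.14% higher. Of 9 tested pericyte genes 1 was called, Abcc9, which encodes the sulfonylurea receptor subunit of a potassium channel of pericytes. It fell from 2047 to 375 normalized counts between young and middle-aged libraries (log2 difference −2.79, SE 0.50, limma adjusted p = 0.0236). The adjusted p rose to 0.0684 to 0.0886 without middle-aged replicate 2 or without any young library. The median of the 9 genes was −2.39, with all 9 libraries included. Of these genes Tbx18, Foxs1, Rgs4, Aoc3 and Vtn each had a middle-aged library at 0. The whole list of 12 pericyte genes summed to 151 normalized counts in middle-aged replicate 3. In middle-aged replicates 1 and 2 it summed to 1362 and 2142. The partner gene of Abcc9, Kcnj8, had 47, 8 and 28 reads in the young, middle-aged and treated conditions, and Higd1b had 57, 0 and 11. Of 9 tested contractile genes 1 was called, the myosin light chain gene Myl9, which fell from 763 to 246 normalized counts (log2 difference −1.72, SE 0.38, limma adjusted p = 0.0427), and the median was −1.41. This call was lost without any 1 library other than middle-aged replicate 1 or 3 (adjusted p 0.0552 to 0.155). In the other comparisons 0 genes of these lists were called by limma.

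None of 9 other tested genes of the Notch pathway, and none of 4 genes for PDGF ligands and the partner receptor Pdgfra, were called by limma in any comparison. Their medians were −0.89 and −1.04 for middle-aged against young, with 5 and 2 genes at an unadjusted p under 0.05. Of all genes 3509 of 14998 were under it in limma. The ligand gene Pdgfb had 0, 14 and 22 reads in the young, middle-aged and treated conditions. Jag1, which encodes Jagged1, averaged 762, 384 and 597 normalized counts in the same order. By contrast, 7 of 7 pan-leukocyte genes rose between young and middle-aged libraries (median log2 difference 1.74), led by Cd53 (2.31, limma adjusted p = 0.0249), Lcp1 (2.09, adjusted p = 0.00732), Rac2 (2.01, adjusted p = 0.0140) and Arhgdib (1.74, adjusted p = 0.0243). Of these 4, Lcp1 stayed past the threshold without any single library, while Cd53, Rac2 and Arhgdib did not (highest adjusted p without 1 library 0.106). Between young and treated libraries Lcp1 rose as well (1.64, limma adjusted p = 0.0396), a call that was lost without middle-aged replicate 2 or any 1 young or treated library. The part of these cells in the lower values of the mural genes was not tested.

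The question whether the mural genes changed more than the stromal cells as a whole was addressed by scaling each library to the 12 niche genes (Lepr, Cxcl12, Kitl and others). This scaling moved the median log2 difference of all genes from −0.08 to 1.31 for middle-aged against young, from 0.09 to −0.77 for treated against middle-aged and from −0.01 to 0.52 for treated against young. With it, the log2 difference between middle-aged and young was −0.03 for Notch3 (SE 0.35, limma adjusted p = 0.949), −0.41 for Pdgfrb, −0.78 for Rgs5, −0.83 for Heyl and −0.40 for Des (adjusted p 0.241 to 0.618). Without middle-aged replicate 3 it was 0.06 for Notch3, −0.11 for Pdgfrb, −0.62 for Rgs5 and −0.13 for Heyl. Acta2 was the 1 member of 10 called on this scale (3.74, SE 1.08, adjusted p = 0.0463), where 11.8% of all genes were called higher, but it was not called without middle-aged replicate 3 (2.87, adjusted p = 0.0543). That call was also lost without any 1 of the young or treated libraries. Abcc9 remained lower on this scale (−1.40, SE 0.40, limma adjusted p = 0.0447), also without middle-aged replicate 3 (−1.33, adjusted p = 0.00623), whereas Myl9 was at −0.33 (adjusted p = 0.560). For treated against middle-aged and against young no member was called on this scale.

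The constancy of Notch3 relative to the niche genes was also seen within libraries. Its log2 level minus the mean log2 level of the 12 niche genes was −3.59, −3.48 and −3.45 in the young libraries, −3.51, −3.27 and −3.78 in the middle-aged libraries and −3.42, −3.22 and −3.27 in the treated libraries. The range over all 9 libraries was 0.56 on the log2 scale, although the normalized count itself varied from 226 to 1763. Its SD of 0.18 was undercut by 0.438% of the 10719 genes whose mean reached 50 normalized counts, and without middle-aged replicate 3 (SD 0.13) by 0.355%.

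The other members varied more against the niche genes. The SD was 0.44 for Pdgfrb, 0.62 for Rgs5, 0.78 for Des, 0.85 for Myh11, 0.96 for Heyl, 1.09 for Mcam, 1.32 for Cspg4, 2.01 for Tagln and 2.10 for Acta2. Without middle-aged replicate 3 it was 0.26 for Pdgfrb, 0.54 for Heyl, 0.57 for Rgs5, 0.71 for Des and 0.86 for Cspg4, and 0.88 to 1.77 for Myh11, Mcam, Acta2 and Tagln. Heyl was at −6.91 in middle-aged replicate 3, on 9 reads, and between −5.32 and −3.60 in the other 8 libraries. Its spread on this scale lay near the middle of all genes, as 55.0% of the 10719 genes had a smaller SD, and 49.5% without middle-aged replicate 3. The level of Acta2 spanned 6.47 on this scale and was lowest in young replicate 1 (−11.50) and highest in middle-aged replicate 3 (−5.04).

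**Figure D3:**
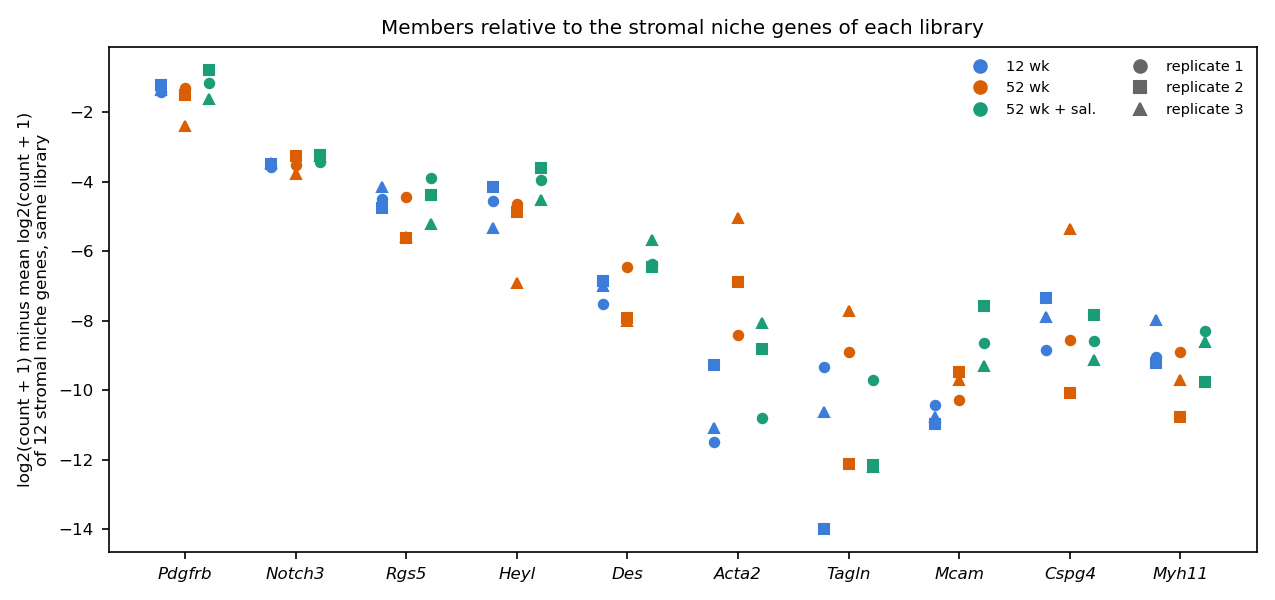
Log2(count + 1) of each gene minus the mean log2(count + 1) of 12 stromal niche genes of the same library (y axis), by condition (color) and replicate (symbol). Notch3 spans 0.56 over the 9 libraries, Heyl 3.31 and Acta2 6.47.

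Finally, Notch3 and Heyl were set against the 8 mural genes over the 9 libraries, in 17 pairs with the pair of Notch3 and Heyl. On log2 normalized counts Notch3 followed Pdgfrb (Pearson r = 0.97, exact permutation p = 0.00184, adjusted p = 0.0223, Spearman rho = 0.85, exact permutation p = 0.00607, adjusted p = 0.103). Notch3 also ran with Rgs5 (r = 0.88, rho = 0.75), Des (r = 0.88, rho = 0.67) and Myh11 (r = 0.79, rho = 0.80), with exact permutation p of 0.00393 to 0.0123 and adjusted p of 0.0223 to 0.0303 for r. Heyl followed Pdgfrb (r = 0.97, exact permutation p = 0.00322, adjusted p = 0.0223, rho = 0.70, p = 0.0433, adjusted p = 0.184), Rgs5 (r = 0.87, rho = 0.57) and Des (r = 0.88, rho = 0.45, adjusted p = 0.0303 for both r). Notch3 and Heyl had an r of 0.93 (exact permutation p = 0.0170, adjusted p = 0.0361) and a rho of 0.53 (exact permutation p = 0.148, adjusted p = 0.251). In all, 8 of the 17 pairs had an adjusted p under 0.05 by r and 0 by rho (adjusted p 0.103 to 0.810).

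The contractile gene Acta2 ran opposite, with r = −0.56 against Notch3 and −0.57 against Heyl (exact permutation adjusted p = 0.122 and 0.0998, rho −0.57 and −0.65). Tagln had r of −0.25 and −0.29 and Cspg4 of −0.07 and −0.10, with adjusted p of 0.638 to 0.853 in the exact permutation test. For Mcam r was 0.54 with Notch3 and 0.69 with Heyl, and for Myh11 with Heyl it was 0.69 (exact permutation adjusted p = 0.207, 0.0967 and 0.0559). Thus the genes that Notch3 and Heyl ran with were those of high level, together with Des and, for Notch3, Myh11.

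These relations rested on middle-aged replicate 3. Without it 0 of 17 pairs passed by r (lowest adjusted p 0.236), and the r of Notch3 was 0.77 with Pdgfrb, 0.57 with Rgs5, 0.51 with Des and 0.41 with Heyl, and the r of Heyl was 0.71 with Pdgfrb. Without middle-aged replicate 2 also 0 pairs passed (lowest adjusted p 0.0923), although r was 0.97 for Notch3 with Pdgfrb, 0.93 with Rgs5 and Des and 0.89 with Myh11, and 0.97 for Heyl with Pdgfrb. Without any other single library 7 to 9 pairs passed. Without the 2 libraries farthest from the median of the x axis, the r of Notch3 was 0.71 with Pdgfrb, 0.39 with Rgs5, 0.28 with Des, 0.56 with Myh11 and 0.16 with Heyl. The r of Heyl was then 0.94 with Pdgfrb, −0.08 with Rgs5 and −0.15 with Des. Within conditions, as deviations from the condition means, r was 0.94 for Notch3 with Pdgfrb, 0.97 for Heyl with Pdgfrb and 0.90 for Notch3 with Heyl. By permutation within conditions the p of these pairs was 0.194, 0.0417 and 0.296. On this scale 0 of 17 pairs passed (lowest adjusted p 0.682). These deviations include middle-aged replicate 3. The relation of Cspg4 changed sign with the library, since its r with Notch3 was −0.07 over 9 libraries and 0.68 without middle-aged replicate 3.

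**Figure D4:**
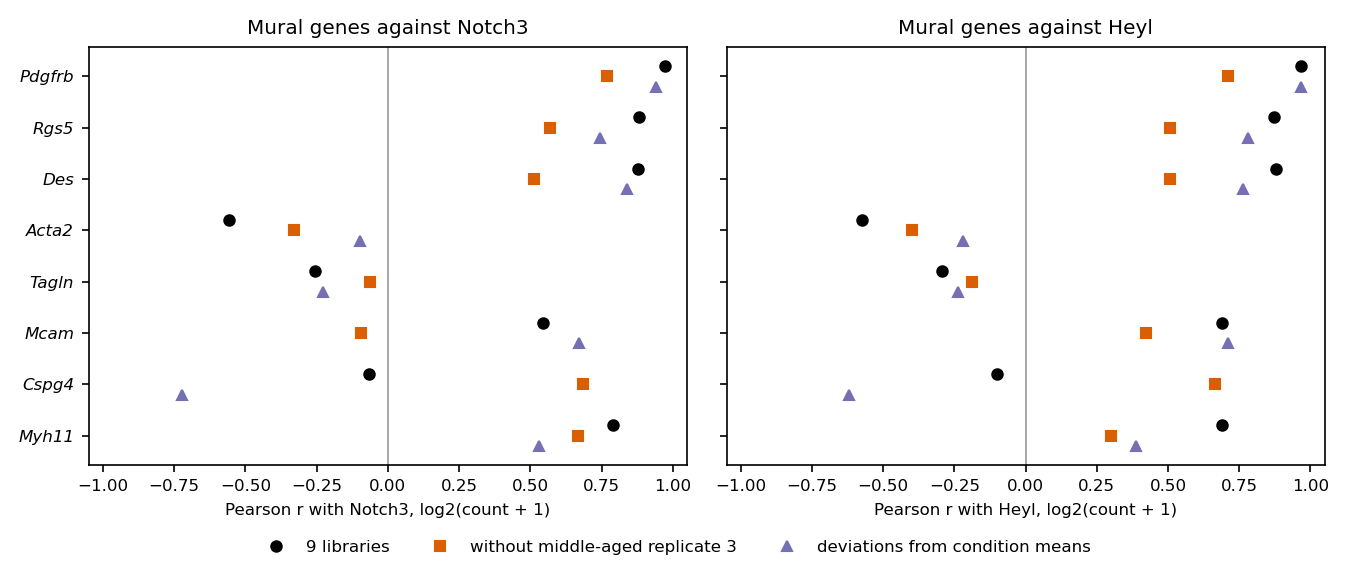
Pearson r (x axis) of the 8 mural genes with Notch3 (left) and Heyl (right) on log2(count + 1), over 9 libraries (circles), without middle-aged replicate 3 (squares) and as deviations from the condition means (triangles). Pdgfrb lies farthest to the right in both panels over 9 libraries, and Acta2 farthest to the left.

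Many genes outside the list ran with Notch3 and Heyl as closely. Over the other 14997 genes tested, r with Notch3 had a median of 0.09 and its 95th percentile was 0.94, and 9.01% of genes had an r above 0.9. For Heyl 7.48% did. Genes with a higher r to Notch3 than Pdgfrb made up 1.20% of all genes, and those with a higher r than Rgs5 10.6%. Those with a higher r to Notch3 than Heyl made up 5.64%. With the other receptor genes the r of Heyl was 0.97 for Notch2, 0.87 for Notch4 and 0.62 for Notch1, beside 0.93 for Notch3. The 12 niche genes had r of 0.92 to 0.99 with Notch3 and of 0.79 to 0.94 with Heyl. The 9 other pericyte genes had a median r of 0.90 with Notch3, the 9 other contractile genes 0.89 and the 7 pan-leukocyte genes −0.62.

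After scaling to the niche genes 1 pair of 17 passed, Heyl with Pdgfrb (r = 0.92, exact permutation adjusted p = 0.0248), but without middle-aged replicate 3 its r was 0.77 (adjusted p = 0.221) and 0 pairs passed. On this scale 0.360% of all genes had a higher r with Heyl than Pdgfrb had. Notch3 had then r of 0.66 with Pdgfrb, 0.11 with Rgs5 and 0.73 with Heyl (exact permutation adjusted p = 0.172, 0.813 and 0.149). Against the sum of the 8 mural genes, of which Pdgfrb made up 86.3%, r was 0.97 for Notch3 and 0.96 for Heyl as a description. Without Pdgfrb in the sum it was 0.83 and 0.79. The rho was 0.85 and 0.70 with the full sum and 0.83 and 0.60 without Pdgfrb. Without middle-aged replicate 3, r was 0.77 and 0.70 with the full sum and 0.68 and 0.54 without Pdgfrb.

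Among the 10714 other genes whose mean reached 50 normalized counts, those with the highest r to Notch3 over the 9 libraries were Slc2a10, Ptk7, Apbb2, Slc9a9 and Pam, with r of 0.993 to 0.995. Those nearest to Heyl were Acvr1b, Deptor, Slc35a1, Smurf1 and Sh3gl1, with r of 0.984 to 0.988. The genes near Notch3 had lower means in treated than in young libraries, such as Slc2a10, whose mean normalized count was 284 in the young, 92.4 in the middle-aged and 198 in the treated condition. Of the genes near Heyl, Acvr1b had nearly the same mean in both (645, 334 and 639). Deptor, Slc35a1, Smurf1 and Sh3gl1 had higher means in treated than in young libraries, such as Deptor with 1782, 944 and 1997. Both sets are ranks over the same 9 libraries and share their size factors.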

How the data were processed

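The signal values deposited by the authors are read counts per gene divided by 1 DESeq2 size factor per library. Per the labels and the methods, reads were aligned with STAR to mm10 (GRCm38) and counted with featureCounts. Versions, annotation and strandedness are not given in the sources used here. Whole reads were recovered from the values (100% whole within 0.1), with 9902613 to 20746804 reads per library. Conditions were compared with limma 3.58.1 (R 4.3.3) on log2(count + 1) with the empirical Bayes trend, over the 14998 genes whose mean reached 10, with all 9 libraries in 1 fit and Benjamini-Hochberg adjustment over these genes. The pseudocount of 1 shrinks the log2 ratios of low genes. Where a library was at or near 0, the log2 difference could still exceed or oppose the ratio of the means. Tagln had means of 12.9 in the young and 12.1 in the middle-aged libraries, with a log2 difference of 0.33. Levels were compared per kilobase of the longest GENCODE M21 transcript by exact permutation of the signs, two-sided. Correlations were tested with exact two-sided permutations of the pairings and adjusted over 17 pairs. The shares of genes with a smaller SD against the niche genes were added after seeing the data. Named genes were every member, Lepr, up to 4 called genes of each other list per comparison with the largest log2 difference, and the 5 genes most like Notch3 and Heyl by r. Other genes were named after their values were seen. The members and lists were chosen with earlier results of these data known. Alternatives were other pseudocounts, filters, scalings and variance settings, a replicate block, fits of 2 conditions, tests of the recovered reads with DESeq2 1.42.0 and edgeR 4.0.16, other lengths, and leaving out each library. The limma fit and the permutation tests were tested on simulated data. Figures were drawn with matplotlib 3.10.9, and numpy 2.4.6, scipy 1.17.1 and pandas 2.3.3 were used in Python 3.11.15.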

Additional observations from a re-analysis of the deposited data

How the results depend on the processing

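No log2 difference of a named gene that passed a test changed sign in any alternative. Some correlations that passed did. With niche scaling the r of Notch3 with Myh11 was −0.09, and −0.44 without middle-aged replicate 3. In the latter setting the r of Notch3 with Rgs5 was −0.33. Without the 2 libraries farthest from the median, the r of Heyl was −0.08 with Rgs5 and −0.15 with Des. The count of members called for middle-aged against young, 0 in the main fit, was 1 with DESeq2 (Rgs5 lower), 1 with niche scaling (Acta2 higher) and 0 to 6 when single libraries were left out. Leaving out single libraries gave 0 to 2 members in the test among the 3 conditions and 0 to 1 relative to the niche genes, an alternative chosen after seeing the data, with Acta2 called without middle-aged replicate 1 or 2 only. For the 17 pairs, 8 passed in the main analysis, 1 with niche scaling (0 without middle-aged replicate 3, a combination chosen after seeing the data), 0 as deviations from the condition means and 0 to 9 without single libraries. Over all genes, 452 calls for middle-aged against young became 1655 with DESeq2, 234 without a filter, 78 without the trend, 1835 with niche scaling, 68 with scaling by the total, 46 from the 2 conditions alone and 28 to 2126 without single libraries. The split of 321 higher and 131 lower genes became 1807 and 28 with niche scaling. For treated against middle-aged, 0 became 43 with DESeq2 and 1 without the trend. For treated against young, 31 became 300 with DESeq2, 2 with edgeR, 16 without a filter, 19 without the trend, 18 with scaling by the total, 429 from the 2 conditions alone and 4 to 379 without single libraries. The replicate block gave 284 calls for middle-aged against young and called no member. As deviations from the condition means, same-numbered libraries had correlations of −0.01 to 0.12 and differently numbered libraries of −0.10 to 0.05. Whether the numbers pair the libraries was not tested. The cause of these changes was not tested. Depth limits Tagln, Mcam, Myh11 and Acta2, which rest on 95 to 288 reads in all. It also limits Rgs5, Heyl and Des in middle-aged replicate 3, where they had 23, 9 and 4 reads.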
